A study of Mus musculus with 14 samples.

Results

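Cysteamine is a small aminothiol that enters the lysosome, reacts with the cystine stored there and lets the products leave without the cystine exporter cystinosin (CTNS). It is used to lower lysosomal cystine in cystinosis, the disease caused by loss of cystinosin. In other settings, free thiols are known to act on disulfide chemistry, which proteins of the endoplasmic reticulum (ER) depend on to fold. The question put to the data was which transcripts differed in abundance between mouse embryonic fibroblasts (MEFs) given cysteamine and untreated MEFs.

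The comparison used 4 of the 14 libraries of the series, 2 of cysteamine-treated MEFs and 2 of untreated MEFs that carry the label NT2. All MEFs were labelled wild type (WT), and neither a dose nor a duration of cysteamine is stated in the labels. The same experiment holds 2 libraries of MEFs with a short hairpin against CTNS (CTNS knockdown) and 2 with the hairpin and a CTNS plasmid (CTNS rescue), and an earlier experiment holds 6 libraries of untreated (NT), cysteine-starved and fully amino acid-starved MEFs. That NT2 is the control of the cysteamine libraries was read from the naming. Polyadenylated RNA fragments of 50-100 nt were taken from a gel, so the libraries are short-fragment libraries. The labels do not state whether replicate libraries were grown as separate cultures, and the p-values therefore measure a spread between libraries that may be technical.

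Each deposited table held counts for the same 1399 transcripts, 1385 of which carry a gene symbol. All listed transcripts had at least 1 count in each library, so the tables are a selected list and cover only part of the transcriptome. NT2 libraries held 165747 and 132998 counts and cysteamine libraries 135829 and 162055. The rank correlation between the replicates across transcripts was 0.976 in NT2 and 0.970 in cysteamine. Ctns itself is not among the listed transcripts. Levels are given as CPM, the library-scaled count of a transcript after TMM scaling over the listed transcripts. A transcript is called where its Benjamini-Hochberg adjusted p in edgeR's quasi-likelihood test over all 1399 is under 0.05. Fold changes are log2 differences with standard errors derived from that test. Each is the absolute log2 difference divided by the square root of the F statistic.

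Fibroblast identity was checked first. Of 16 markers, 8 were listed, among them the collagens Col1a1, Col1a2 and Col3a1, fibronectin (Fn1) and vimentin (Vim), and their summed level lay between 48529 and 53181 CPM in NT2 and between 29562 and 30958 CPM with cysteamine. No immune, endothelial, neural or adipocyte marker was listed. Of the 6 epithelial markers only Cdh1 was listed, at 5.66 and 34.4 CPM in NT2 and 36.9 and 12.4 CPM with cysteamine. The striated muscle marker Ttn had 142 and 275 CPM in NT2 and 339 and 304 CPM with cysteamine. Ctrb1, a pancreatic digestive protease, rose from 17.0 and 20.6 CPM to 73.8 and 99.3 CPM (log2 fold change 2.17 ± 0.51, edgeR adjusted p 0.00700), a call that was lost without cysteamine replicate 2 (adjusted p 0.0681) and without NT2 replicate 1 (adjusted p 0.0589).

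Counts were also unevenly spread over transcripts. The 3 transcripts with the most counts in the series, Luc7l2, Pigl and Pglyrp3, took 3.49% and 3.29% of the NT2 counts and 7.98% and 7.72% of the cysteamine counts, against means of 15.9% in CTNS knockdown and 19.8% in CTNS rescue. A class of 236 transcripts, those richer in the untreated and fully starved libraries of the earlier experiment than in CTNS knockdown, held 10.5% ± 0.182 of the counts in NT2 and 15.5% ± 0.716 in cysteamine (SD, n = 2 each). In the 2 NT libraries the class held a mean of 73.1%. Ctrb1 belongs to the class and had 331 and 470 CPM in CTNS knockdown and 578 and 538 CPM in CTNS rescue. Its part in the differences below was not tested, and main results are therefore also given for the 1163 transcripts outside it.

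Cysteamine was accompanied by lower transcript levels of ER chaperones and of much of the collagen matrix, and by higher levels of nucleolar factors, cytosolic chaperones, ribosomal proteins and a set of single transcripts that includes Nid1, Fth1, Prdx1 and Sqstm1. In all, 225 transcripts were called higher (16.1% of those tested) and 150 lower (10.7%), together 26.8%. Counts of called members in the lists below are to be read beside these shares. With libraries scaled by total counts in place of TMM, 151 were higher and 210 lower, as the median of all transcripts moved from 0.092 to -0.023 on the log2 scale; small rises therefore lost calls under that scaling and small falls gained them. Outside the class 164 were called higher and 135 lower, and changes of more than 1 log2 unit were balanced there, with 41 in each direction. DESeq2 called 75 higher and 57 lower, all 132 of them in the same direction as edgeR. Its default filter left some transcripts without an adjusted p, and these were counted as not called throughout. The libraries of the 2 groups did not overlap for 65.1% of transcripts. The median annotated length was 3105 bases for transcripts called higher, 5177 for those called lower and 4350 for all, and its part in the calls was not tested.

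**Figure D1:**
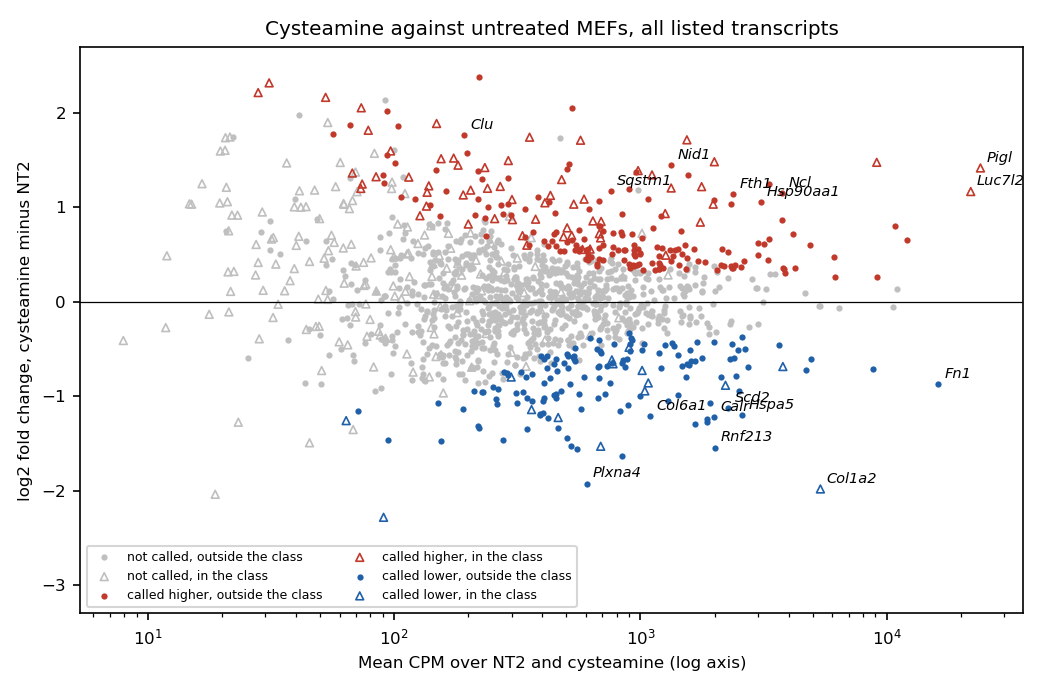
Log2 fold change of cysteamine against NT2 (vertical axis) by mean level in CPM over the 4 libraries (horizontal log axis) for the 1399 transcripts; red is called higher, blue called lower, grey not called, and open triangles belong to the class rich in the earlier experiment. The 225 higher and 150 lower transcripts spread over the whole range of levels, with Hspa5 and Calr near -1.2 and Nid1 at 1.45.

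The ER chaperones showed the most uniform fall. The ER lumen holds chaperones and disulfide isomerases that fold secreted proteins, and their genes are classically induced through an ER stress element, a promoter motif bound by ATF6 with NF-Y. The motif was looked for because it is known for these genes, and its sites are shown to set the sequence beside the measurements. The motif searched was CCAAT, then 9 bases of any kind, then CCACG, on either strand, and it was found in 39 of 32851 RefSeq promoters (0.119%; build GRCm38.p6, 250 bases before to 50 bases after the start), in 7 of 1358 promoters of listed transcripts (0.515%) and in 5 of the 8 promoters that the table holds for the 9 listed ER chaperones (62.5%). The motif is in capitals, printed on the strand that reads it 5′ to 3′, with 10 flanking bases on each side.
Hspa5: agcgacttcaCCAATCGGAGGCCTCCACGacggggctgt
Calr: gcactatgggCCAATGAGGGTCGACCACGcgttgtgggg
Hsp90b1, distal: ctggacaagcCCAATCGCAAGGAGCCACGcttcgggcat
Hsp90b1, proximal: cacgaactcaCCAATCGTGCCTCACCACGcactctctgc
Pdia6: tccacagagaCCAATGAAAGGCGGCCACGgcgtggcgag
Canx: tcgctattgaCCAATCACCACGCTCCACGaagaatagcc

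The windows lie at chr2:34772015-34772053 (Hspa5, plus strand), chr8:84847065-84847103 (Calr, plus), chr10:86705628-86705666 (Hsp90b1 distal, minus) and chr10:86705523-86705561 (Hsp90b1 proximal, plus), chr12:17266481-17266519 (Pdia6, plus) and chr11:50325790-50325828 (Canx, minus). The sites begin 65, 162, 212, 107, 98 and 145 bases before the start site, in the order Hspa5, Calr, Hsp90b1 distal, Hsp90b1 proximal, Pdia6 and Canx. For Hspa5, whose fall is described next, the 250 bases before the start site (chr2:34771840-34772089, plus strand) are shown whole with the same capitals.
Hspa5 promoter: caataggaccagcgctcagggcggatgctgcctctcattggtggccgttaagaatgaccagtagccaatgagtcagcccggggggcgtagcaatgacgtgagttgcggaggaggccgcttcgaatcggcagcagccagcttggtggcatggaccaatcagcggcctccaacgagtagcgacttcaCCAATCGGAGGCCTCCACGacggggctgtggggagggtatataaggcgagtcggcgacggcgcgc

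Hspa5 encodes BiP, the main Hsp70 chaperone of the ER lumen and the sensor partner of the unfolded protein response. It had 3590 and 3628 CPM in NT2 and 1630 and 1521 CPM with cysteamine, a fall of more than the spread within either pair (log2 fold change -1.20 ± 0.10, edgeR adjusted p 4.53e-06). CTNS knockdown libraries had 4256 and 4095 CPM and CTNS rescue libraries 2761 and 2607 CPM, so the cysteamine libraries were the lowest of the 8. Calr, the calcium-binding lectin chaperone calreticulin, fell from 2718 and 2851 CPM to 1321 and 1080 CPM (-1.22 ± 0.15, edgeR adjusted p 7.06e-05). Hsp90b1, the ER member of the Hsp90 family (GRP94), fell from 1818 and 1951 CPM to 930 and 968 CPM (-0.99 ± 0.12). The disulfide isomerases Pdia4 and Pdia6 fell as well, Pdia4 from 634 and 694 CPM to 229 and 292 CPM (-1.33 ± 0.18) and Pdia6 from 651 and 570 CPM to 266 and 335 CPM (-1.02 ± 0.18). Hyou1, the nucleotide exchange factor of BiP, followed with a log2 fold change of -0.97 ± 0.13. Smaller falls were measured for the isomerases Pdia3 (-0.65 ± 0.15), whose call was lost without cysteamine replicate 2 (adjusted p 0.0841), and P4hb (-0.45 ± 0.11), whose call was lost without cysteamine replicate 2 (0.0950) or NT2 replicate 2 (0.0605).

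Altogether 8 of the 9 listed ER chaperones were called lower and none higher, against 10.7% lower among all transcripts, with a list median of -0.99 against 0.092 for all. The exception was Canx, the membrane-bound lectin calnexin, at 1552 and 1594 CPM in NT2 and 1402 and 1316 CPM with cysteamine (-0.21 ± 0.12, edgeR adjusted p 0.203). Its promoter holds the motif, as do those of Hspa5, Calr, Hsp90b1 and Pdia6, so presence of the letters did not separate the members that fell from the one that was not called. Outside the list the motif was found in the promoters of Hnrnpa3 (0.10, adjusted p 0.584) and Spats2l (0.31, adjusted p 0.625), neither of which was called. DESeq2 did not call Pdia3 (adjusted p 0.144) or P4hb (0.145), and edgeR on all 14 libraries did not call P4hb (0.250). All 9 members lay below 0 also with scaling by total counts. That scaling moved the median of all transcripts down, from 0.092 to -0.023, so it could not test the falls. With the 2 NT libraries of the earlier experiment added to the control, 1 of the 9 was called lower, beside 98 of all 1399 transcripts. Hspa5 (-0.68, edgeR adjusted p 0.0857), Calr (-0.43, 0.272), Hsp90b1 (-0.45, 0.292), Pdia4 (-0.52, 0.318), Pdia6 (-0.46, 0.304), Pdia3 (-0.014, 0.977) and P4hb (-0.060, 0.879) were not called. The summed level of the 9 was 15517 and 15927 CPM in NT2 and 8957 and 8466 CPM with cysteamine.

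Cytosolic and mitochondrial chaperones moved the other way. Of 8 listed members of the Hsp90, Hsp70 and Hsp60 families outside the ER, 5 were called higher and none lower, with all 8 above 0 and a median of 0.55. Hsp90aa1, the stress-inducible cytosolic Hsp90, had 1976 and 2020 CPM in NT2 and 4102 and 4220 CPM with cysteamine (1.06 ± 0.10, edgeR adjusted p 1.00e-05). In CTNS knockdown it had 3564 and 3823 CPM, and the difference of cysteamine from knockdown, 0.17 ± 0.10, was not called (edgeR adjusted p 0.193). The mitochondrial chaperonin Hspd1 (0.78 ± 0.13), the exchange factor Hsph1 (0.74 ± 0.15) and the constitutive Hsp90ab1 (0.66 ± 0.08) rose too. Within the Hsp90 family the ER member Hsp90b1 thus fell while both cytosolic members rose. The shift between TMM and total-count scaling was smaller than these changes, so the same directions there are no separate support. Of 5 subunits of the cytosolic chaperonin that folds actin and tubulin, 4 were called higher with a median of 0.39, led by Cct8 (0.61 ± 0.16; adjusted p 0.196 without cysteamine replicate 2 and 0.0948 without NT2 replicate 2). None of the 5 was called by DESeq2, and between 0 and 3 when any 1 library was left out, with none called without cysteamine replicate 2.

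**Figure D2:**
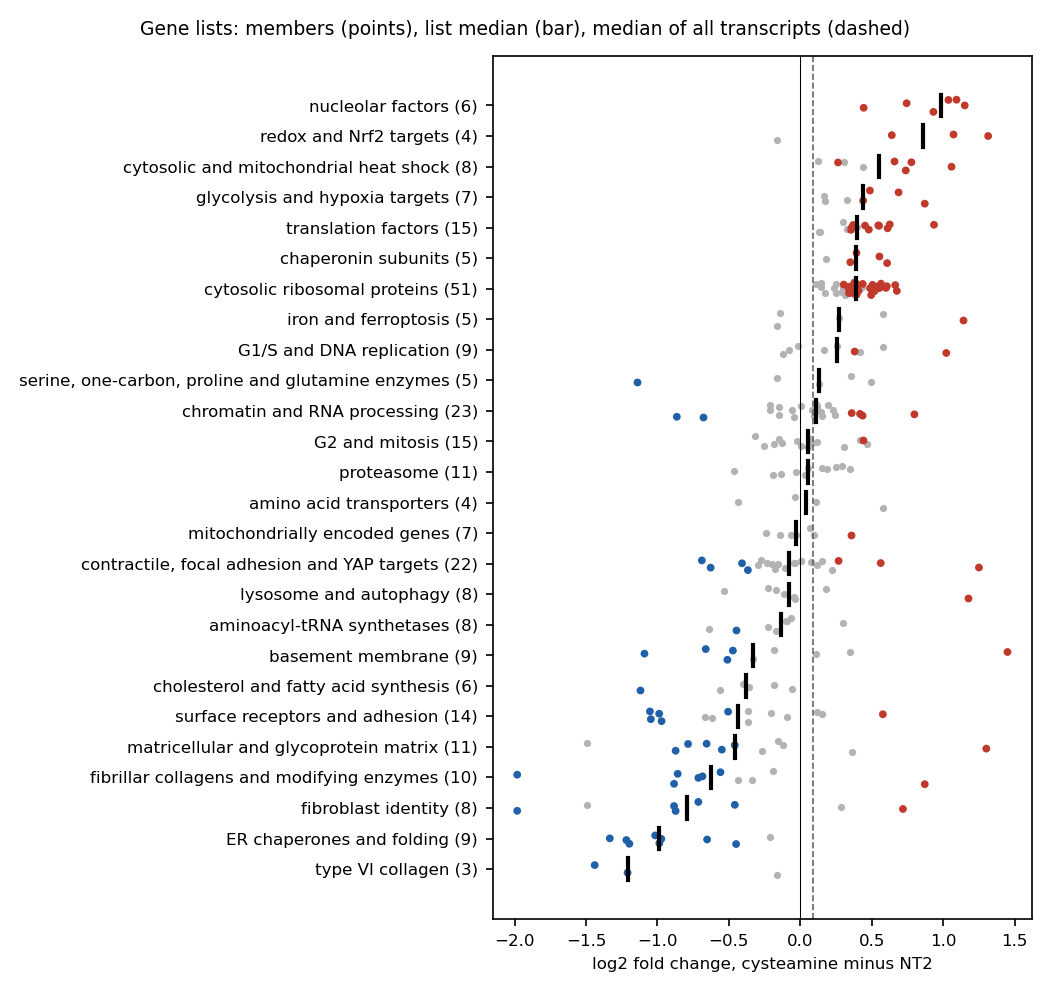
Log2 fold change of cysteamine against NT2 for the listed members of 26 gene lists, with the number of members in brackets; points are transcripts (red called higher, blue called lower, grey not called), black bars list medians and the dashed line the median of all transcripts, 0.092. ER chaperones and type VI collagen sit lowest and nucleolar factors highest.

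Transcripts of ribosome assembly and translation were higher. All 6 listed nucleolar factors were called higher, with a median of 0.98, against 16.1% of all transcripts. Ncl, the nucleolar RNA-binding protein nucleolin, rose from 2401 and 2260 CPM to 4950 and 5406 CPM (1.15 ± 0.10, edgeR adjusted p 4.53e-06), above both CTNS knockdown libraries at 3724 and 3934 CPM. Npm1, the histone and ribosome chaperone nucleophosmin, rose from 1433 and 1628 CPM to 3040 and 3227 CPM (1.04 ± 0.12), while knockdown libraries had 984 and 1200 CPM. Nop56, a core protein of box C/D small nucleolar ribonucleoproteins, had 617 and 763 CPM in NT2 and 1402 and 1521 CPM with cysteamine (1.09 ± 0.16). The helicase Ddx21, which couples ribosomal RNA transcription and processing, rose by 0.93 ± 0.15. The summed level of the 6 was 5810 and 6040 CPM in NT2 and 11524 and 12549 CPM with cysteamine.

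Changes of translation factors and ribosomal proteins were smaller and less secure. Of 15 translation factors, 10 were called higher and none lower, with a median of 0.40, among them the helicase Eif4a1 (0.63 ± 0.11), the poly(A)-binding protein Pabpc1 (0.61 ± 0.10) and the elongation factor Eef2 (0.48 ± 0.09). All 51 listed cytosolic ribosomal proteins lay above 0 with a median of 0.39, and 30 were called higher. Rpl27 was the highest, with 742 and 818 CPM in NT2 and 1203 and 1279 CPM with cysteamine (0.68 ± 0.11), followed by Rps25 (0.66 ± 0.17; adjusted p 0.124 without cysteamine replicate 1 and 0.0900 without NT2 replicate 2), then Rpl41 (0.61 ± 0.11) and Rps6 (0.60 ± 0.11). DESeq2 called 1 of the 51 ribosomal proteins and 3 of the 15 translation factors, beside 75 of all 1399 transcripts that it called higher. Scaling by total counts left 50 of the 51 ribosomal proteins above 0 with 14 called, and leaving out 1 library left 14 (without cysteamine replicate 1), 9 (without cysteamine replicate 2), 18 (without NT2 replicate 1) and 12 (without NT2 replicate 2). Ribosomal protein genes have many near-identical processed copies in the mouse genome, so reads may have been split among them.

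**Figure D3:**
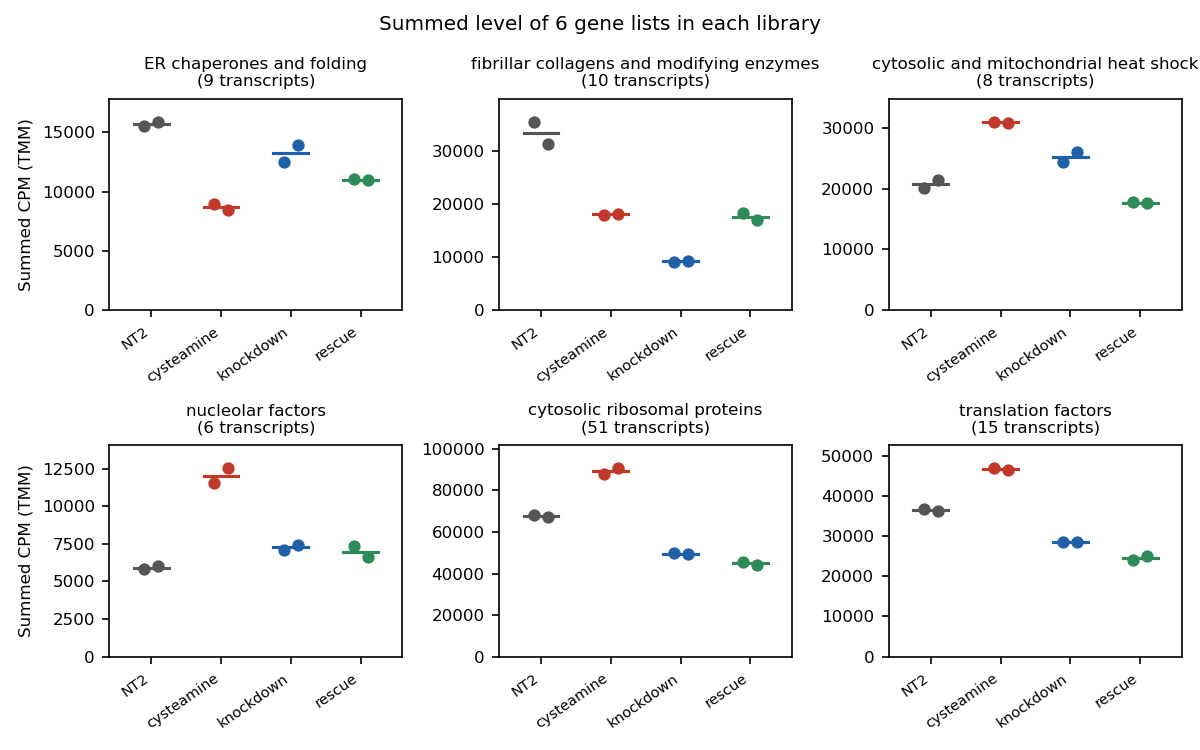
Summed level in CPM (vertical axes, from 0) of 6 gene lists in each library of NT2, cysteamine, CTNS knockdown and CTNS rescue; points are libraries and bars group means (n = 2). Cysteamine libraries are the lowest of the 8 for ER chaperones and the highest for nucleolar factors, heat shock proteins, ribosomal proteins and translation factors.

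The extracellular matrix showed mostly lower levels. Type I collagen, the main fibrillar collagen of fibroblasts, is built from chains encoded by Col1a1 and Col1a2. Col1a2 fell from 9338 and 7833 CPM to 2228 and 2123 CPM (-1.98 ± 0.14, edgeR adjusted p 1.19e-06), and Col1a1 from 11552 and 10244 CPM to 6463 and 6827 CPM (-0.71 ± 0.09, edgeR adjusted p 7.30e-05; 0.212 in a fit of all 14 libraries). Both fell in both libraries, Col1a2 by the larger amount. Col3a1 had a log2 fold change of -0.88 ± 0.12, and the collagen crosslinking enzyme Lox, at 1387 and 1388 CPM in NT2 and 753 and 776 CPM with cysteamine, one of -0.86 ± 0.12. Of 10 listed fibrillar collagens and their modifying enzymes 6 were called lower, with a median of -0.62. The single member called higher was P4ha1, the catalytic subunit of prolyl 4-hydroxylase (0.87 ± 0.26), whose call was lost without cysteamine replicate 1 (adjusted p 0.142), cysteamine replicate 2 (0.0831) or NT2 replicate 1 (0.186). Col1a2, Col3a1, Lox and P4ha1 belong to the class rich in the earlier experiment; of the 5 members outside it, 3 were called lower when the class was left out and the rest scaled anew. With the NT libraries added to the control, the falls of Col1a1 (-0.39, edgeR adjusted p 0.403), Col3a1 (-0.46, 0.213) and Lox (-0.37, 0.188) were smaller and not called. Of the 10, 1 was called lower, beside 98 of all 1399 transcripts.

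Fn1, the matrix glycoprotein fibronectin, fell from 21315 and 20482 CPM to 11111 and 11712 CPM (-0.87 ± 0.08, edgeR adjusted p 4.53e-06; 0.128 in a fit of all 14 libraries). Type VI collagen, which forms beaded filaments around cells, was lower for Col6a1 (1427 and 1635 CPM to 634 and 683 CPM, -1.21 ± 0.13) and Col6a2 (-1.44 ± 0.20), while Col6a3 had -0.16 ± 0.25 (edgeR adjusted p 0.680). Timp3, an inhibitor of matrix metalloproteinases, fell by 0.79 ± 0.12 on the log2 scale. Of 11 matricellular and glycoprotein transcripts 5 were called lower and 1 higher. The latter was Ltbp1, which anchors latent TGF-beta in the matrix (130 and 131 CPM to 310 and 335 CPM, 1.30 ± 0.25, edgeR adjusted p 0.00196). Ltbp1 had no adjusted p in DESeq2. DESeq2 called 2 of the 11 lower and none higher, and 2 to 4 were called lower when 1 library was left out, 2 each without cysteamine replicate 1, cysteamine replicate 2 or NT2 replicate 1. With NT added to the control, Fn1 (-0.36, adjusted p 0.446), Col6a1 (-0.69, 0.0521), Col6a2 (-0.84, 0.0592), Timp3 (-0.30, 0.393) and Ltbp1 (0.60, 0.153) lost their calls.

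Basement membrane transcripts split within a gene pair. Nid1 and Nid2 encode the related linker proteins nidogen-1 and nidogen-2, which join laminin to type IV collagen. Nid1 rose from 798 and 625 CPM to 1822 and 2092 CPM (1.45 ± 0.14, edgeR adjusted p 1.16e-05), and Nid2 fell from 1297 and 1127 CPM to 612 and 534 CPM (-1.09 ± 0.13, edgeR adjusted p 4.12e-05). The paralogs thus moved in opposite directions. For neither gene did the cysteamine and NT2 libraries overlap, as for 65.1% of all transcripts. The proteoglycan perlecan (Hspg2) fell by 0.51 ± 0.11 on the log2 scale. Of 9 listed basement membrane transcripts 4 were called lower and 1 higher; DESeq2 called 1 lower, and 2 were called lower without cysteamine replicate 1, NT2 replicate 1 or NT2 replicate 2. With NT added to the control, Nid2 (-0.33, adjusted p 0.341) and Hspg2 (-0.082, 0.864) lost their calls, and none of the 9 was called lower.

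Several transcripts outside the class and the lists above rose by more than 1 log2 unit. Plaur, the receptor that binds urokinase plasminogen activator at the cell surface, rose from 90.6 and 110 CPM to 258 and 335 CPM (1.57 ± 0.37, edgeR adjusted p 0.00734), a call lost without cysteamine replicate 2 (adjusted p 0.0841) and without NT2 replicate 1 (adjusted p 0.0693). Clu, the extracellular chaperone clusterin, rose from 96.3 and 75.6 CPM to 332 and 267 CPM (1.76 ± 0.28), but was higher still in CTNS knockdown (542 and 507 CPM) and CTNS rescue (604 and 815 CPM), and was not called with NT added to the control (0.19, adjusted p 0.667). Ybx3, a cold shock domain RNA-binding protein, rose from 549 and 522 CPM to 1239 and 1533 CPM (1.37 ± 0.13).

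Clu was not alone in its order. Of the 12 transcripts outside the class with the largest called rises, 8 had group means in a climbing order. It ran from NT2 through cysteamine and CTNS knockdown to CTNS rescue. The first step was fixed by choosing the 12 for their rise over NT2. Among all transcripts outside the class, falls included, 8.6% had that order. The share of Luc7l2, Pigl and Pglyrp3 climbed in the same order, and a link was not tested. The 8 were Lca5l, Col28a1, Zfp84, Rapgef4, Clu, Snap91, Tenm4 and 1 transcript with no symbol in the annotation used. Lca5l, at 68 and 69 CPM in NT2 and 561 and 186 CPM with cysteamine, lost its call without cysteamine replicate 1 (1.43, adjusted p 0.144), without NT2 replicate 1 (adjusted p 0.0651) and without NT2 replicate 2 (adjusted p 0.0507). Plaur, Nid1 and Xdh did not have that order, and Xdh lost its call without cysteamine replicate 2 (adjusted p 0.158) and without NT2 replicate 2 (adjusted p 0.105). Calls were also lost for Zfp84 and Col28a1 without cysteamine replicate 1 (adjusted p 0.128 and 0.0567) and without NT2 replicate 2 (0.0562 and 0.0700), for Zfp84 without NT2 replicate 1 (0.0599), for Tenm4 without cysteamine replicate 2 (0.0586) or NT2 replicate 1 (0.0606), and for Rapgef4 without any 1 of the 4 libraries (0.0947 to 0.163). Over all 164 transcripts called higher outside the class, for which the first step is fixed as well, 11.6% had the climbing order. Within the class 61 transcripts were called higher and 15 lower, with a median of 0.51, and Luc7l2 rose from 14169 and 12848 CPM to 31075 and 29685 CPM (1.17 ± 0.08, edgeR adjusted p 5.71e-07; 0.193 in a fit of all 14 libraries).

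**Figure D4:**
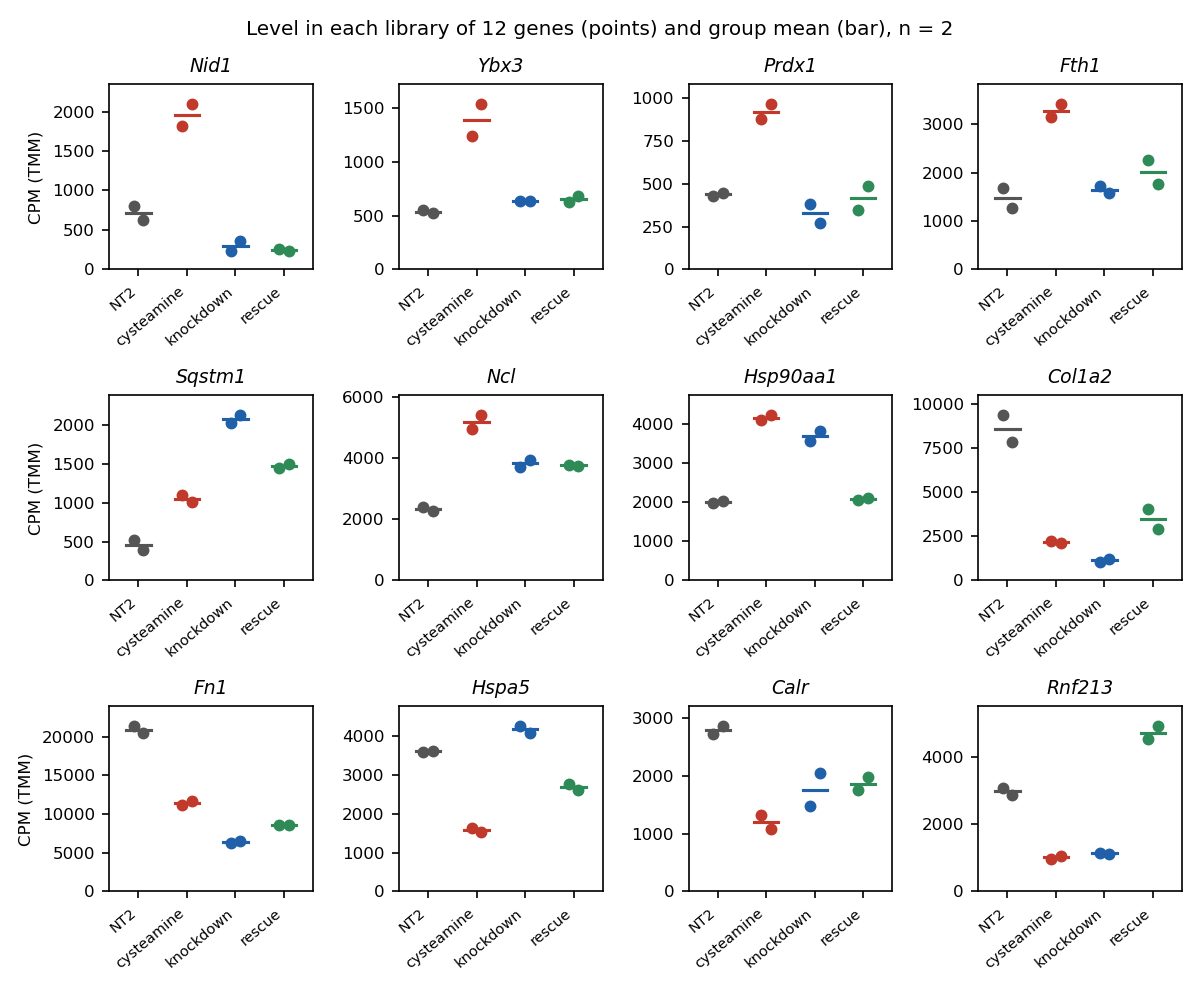
Level in CPM (vertical axes, from 0) of 12 genes in each library of NT2, cysteamine, CTNS knockdown and CTNS rescue; points are libraries and bars group means (n = 2). Nid1, Ybx3, Prdx1, Fth1 and Ncl are highest with cysteamine, Hspa5 and Calr lowest, and Rnf213 and Col1a2 are low with both cysteamine and CTNS knockdown.

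Among transcripts that fell, surface and signalling proteins stood beside the matrix. Plxna4, a semaphorin receptor, fell from 1082 and 831 CPM to 266 and 242 CPM (-1.92 ± 0.19, edgeR adjusted p 1.16e-05), and the leucine-rich repeat membrane protein Lrrn4 from 1353 and 1189 CPM to 384 and 434 CPM (-1.63 ± 0.17). Heg1, a mucin-like membrane receptor, had 821 and 824 CPM in NT2 and 266 and 292 CPM with cysteamine (-1.55 ± 0.16). Of 14 listed surface receptors and adhesion molecules 5 were called lower, with a median of -0.44, including the endocytic receptor Lrp1 (-1.05 ± 0.12), the mannose 6-phosphate receptor Igf2r (-0.99 ± 0.16), which carries acid hydrolases to lysosomes, and the cadherin Cdh11 of mesenchymal cells (-0.97 ± 0.15). The receptor tyrosine kinase Axl was the single member called higher (0.58 ± 0.13). DESeq2 called 3 of the 14 lower and none higher, and 3 were called lower without cysteamine replicate 1. With NT added to the control, none of the 14 was called lower, and Lrrn4 (-0.64, adjusted p 0.159), Lrp1 (-0.51, 0.117), Igf2r (-0.36, 0.467) and Cdh11 (-0.37, 0.396) lost their calls.

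Rnf213, a very large ubiquitin ligase induced by interferon, gave the smallest adjusted p among falls outside the class that the naming rule picked. It had 3075 and 2886 CPM in NT2 and 974 and 1068 CPM with cysteamine (-1.54 ± 0.11, edgeR adjusted p 1.24e-06). CTNS knockdown libraries had 1144 and 1126 CPM, from which cysteamine differed by -0.15 ± 0.13 with no call (edgeR adjusted p 0.381), whereas CTNS rescue libraries had 4546 and 4921 CPM. Scd2, a fatty acid desaturase, fell from 3398 and 2824 CPM to 1594 and 1272 CPM (-1.12 ± 0.13) and was called alone among 6 listed genes of cholesterol and fatty acid synthesis, but not with NT added to the control (-0.26, adjusted p 0.502). Srebf2, the transcription factor of cholesterol synthesis, had -0.40 ± 0.16 (adjusted p 0.0736) and was called lower with scaling by total counts (0.0276), only the 4 libraries compared (0.0361), the replicate block (0.0290) and without NT2 replicate 2 (0.0275). Vim, the intermediate filament of mesenchymal cells, rose from 3273 and 2996 CPM to 4914 and 5406 CPM (0.72 ± 0.10), while 5 other fibroblast identity markers fell. Of 22 contractile and focal adhesion transcripts 3 were called higher and 4 lower, beside 16.1% and 10.7% of all transcripts, with a median of -0.076. Among them the membrane-cytoskeleton linker Ezr (-0.69 ± 0.10) and the non-muscle myosin Myh10 (-0.63 ± 0.12) fell.

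Iron storage and thiol redox transcripts rose where they were called. Fth1, the ferritin heavy chain, rose from 1688 and 1271 CPM to 3143 and 3414 CPM (1.14 ± 0.15, edgeR adjusted p 8.81e-05), with CTNS knockdown at 1717 and 1584 CPM. Prdx1, a thiol peroxidase, rose from 430 and 447 CPM to 878 and 962 CPM (1.07 ± 0.16, edgeR adjusted p 0.000283). Abcc1, an exporter of glutathione conjugates, rose from 187 and 144 CPM to 398 and 434 CPM (1.32 ± 0.23, edgeR adjusted p 0.00108). The superoxide dismutase Sod1 (0.64 ± 0.20, adjusted p 0.0312) was not called when any 1 of the 4 libraries was left out (adjusted p 0.0697 to 0.202). Gpx4, the peroxidase that protects membranes from ferroptosis, had 283 and 268 CPM in NT2 and 266 and 230 CPM with cysteamine (-0.16 ± 0.23, edgeR adjusted p 0.655). Slc3a2, the heavy chain of the cystine importer, had 176 and 234 CPM and then 310 and 298 CPM, a difference of 0.58 ± 0.25 that was not called (adjusted p 0.0964). Of 29 redox and Nrf2 target genes in the list only 4 were among the listed transcripts, and of 18 iron and ferroptosis genes 5, so most of both pathways could not be read.

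Lysosome and amino acid genes were mostly not called. Sqstm1, the autophagy receptor p62, rose from 527 and 399 CPM to 1099 and 1012 CPM (1.17 ± 0.15, edgeR adjusted p 8.28e-05), and was called alone among 8 listed lysosome and autophagy genes. Its level was higher in CTNS knockdown, at 2028 and 2128 CPM, and in CTNS rescue, at 1451 and 1499 CPM. Lamp1, a major lysosomal membrane protein, had -0.23 ± 0.12 (edgeR adjusted p 0.199). With NT added to the control, Lamp1 had 0.74 and was called higher (edgeR adjusted p 0.0354). That contrast mixes treatment with the difference between the 2 experiments. Atf4, the transcription factor of the amino acid response, had 889 and 866 CPM in NT2 and 885 and 1024 CPM with cysteamine (0.13 ± 0.12, edgeR adjusted p 0.486). None of 4 amino acid transporters was called in edgeR with TMM on 8 libraries or in DESeq2, although 2 had an unadjusted p under 0.05 in edgeR, and their median was 0.038. Slc38a1, a glutamine transporter, had -0.44 ± 0.19 (adjusted p 0.0969) and was called lower with scaling by total counts (0.0477) and with only the 4 libraries compared (0.0260). Of 5 enzymes of serine, one-carbon, proline and glutamine metabolism, Aldh18a1, the first enzyme of proline synthesis, was called. It fell from 521 and 474 CPM to 214 and 236 CPM (-1.14 ± 0.21, edgeR adjusted p 0.00147). Aldh18a1 belongs to the class rich in the earlier experiment. Of 8 aminoacyl-tRNA synthetases Aars was called (-0.45 ± 0.12, adjusted p 0.0160), but not with DESeq2 (0.247), and not without cysteamine replicate 1 (0.104), cysteamine replicate 2 (0.0771) or NT2 replicate 1 (0.136). Yars, at -0.64 ± 0.23, missed the threshold (adjusted p 0.0553) and passed it in 5 alternatives, among them scaling by total counts (0.0302).

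Proteasome, mitosis and chromatin genes had medians near that of all transcripts, and the G1/S and glycolysis lists higher ones. Of 11 proteasome subunits none was called in edgeR with TMM on 8 libraries, in DESeq2 or in limma. In that edgeR fit 0 had an unadjusted p under 0.05, and the median was 0.051. With NT added to the control, which mixes treatment with experiment, the subunit Psmd7 was called higher (1.29, edgeR adjusted p 0.0331). Of 15 G2 and mitosis genes 1 was called higher. Of 9 G1/S and replication genes, with a median of 0.26, 2 were called higher. These were Ccnd1, which encodes cyclin D1 (1.02 ± 0.25), and the helicase subunit Mcm3 (0.38 ± 0.13). DESeq2 called none of either list, but it gave Ccnd1 no adjusted p. The Ccnd1 call was lost without cysteamine replicate 2 (adjusted p 0.104) and NT2 replicate 1 (0.124), and that of Mcm3 without any 1 of the 4 libraries (0.0740 to 0.208). Of 7 glycolysis and hypoxia genes 4 were called higher with a median of 0.44, none of them by DESeq2, and 0 without cysteamine replicate 1. Of 23 chromatin and RNA processing genes 4 were called higher and 2 lower, near the shares of all transcripts (16.1% and 10.7%). The chromatin remodeller Chd3 was among those called lower (-0.86 ± 0.13).

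Cysteamine was then compared directly with CTNS knockdown, the other perturbation of lysosomal cystine handling in the same experiment; NT2 is no side of this contrast but shares its scaling and its estimate of the spread. Cysteamine libraries had more of the fibroblast matrix and the translation machinery and fewer ER chaperone and class transcripts. In all 295 transcripts were called higher with cysteamine (21.1%) and 234 lower (16.7%), together 37.8%, and the libraries did not overlap for 69.1%. Nid1 differed the most among the higher transcripts outside the class (2.76 ± 0.19, edgeR adjusted p 1.99e-06), since CTNS knockdown libraries had 231 and 359 CPM. Next were Ect2, a cytokinesis exchange factor (1.83 ± 0.30), Dab2, an endocytic adaptor (1.83 ± 0.25), and the ribosomal protein Rpl36a (1.74 ± 0.19). Of 51 ribosomal proteins 46 were called higher, of 15 translation factors 12 and of 10 fibrillar collagen genes 8, none of these lists having a member called lower. Of 8 fibroblast markers 7 were higher, with Sparc at 1.55 ± 0.13. Of the class rich in the earlier experiment 21 were higher and 86 lower.

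Some changes against NT2 were also present against CTNS knockdown and some were not. The ER chaperones Hspa5 (-1.41 ± 0.11, edgeR adjusted p 1.99e-06), Hsp90b1 (-1.04 ± 0.12), Calr (-0.55 ± 0.16), Pdia4 (-0.70 ± 0.21) and Hyou1 (-0.66 ± 0.15) were lower with cysteamine than with knockdown, 5 of 9 in all. Of these calls, that of Calr was lost without cysteamine replicate 2 (adjusted p 0.162) or CTNS knockdown replicate 2 (0.174), that of Pdia4 without cysteamine replicate 1 (0.113) or either knockdown library (0.0985 and 0.0512), and that of Hyou1 without CTNS knockdown replicate 2 (0.0506); DESeq2 called none of these 3 (0.105, 0.199 and 0.116), and Calr was not called with 14 libraries (0.101). Fth1 (0.99 ± 0.15), Prdx1 (1.47 ± 0.19) and Ncl (0.44 ± 0.10) were higher, the call of Ncl being lost without cysteamine replicate 2 (adjusted p 0.0529), with DESeq2 (0.0779) and with 14 libraries (0.269). Col1a2 (0.94 ± 0.16) and Fn1 (0.84 ± 0.08) were higher than in knockdown although lower than in NT2, calls lost in the fit of all 14 libraries (adjusted p 0.0607 and 0.101), and Sqstm1 was lower than in knockdown (-0.98 ± 0.13) although higher than in NT2. For Col6a1 (0.073 ± 0.16), Heg1 (-0.098 ± 0.21) and Scd2 (0.14 ± 0.15) no difference from knockdown was called.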

How the data were processed

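Polyadenylated RNA of wild-type MEFs was sequenced in 14 libraries, 2 in each of 7 groups. The authors deposited whole-number counts per transcript, 1 table per library, with no normalization. Per the submitters' processing notes, bcl2fastq 2.20.0.422, cutadapt 2.8, Bowtie 1.2.3, STAR 2.7.10a and the assembly GRCm39 were used; the counting tool and its treatment of strand and multimapping reads are not given in the sources used, so overlapping and duplicated genes are uncertain. Symbols and lengths came from GENCODE M21, another build, so no coordinates were taken from it; promoter sequences are from RefSeq.

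Counts were fitted with edgeR 4.0.16 (TMM, quasi-likelihood test, R 4.3.3) on the 8 libraries of the second experiment with 4 group means and 4 residual degrees of freedom, without a filter, with Benjamini-Hochberg adjustment over 1399 transcripts and a threshold of 0.05. The 6 earlier libraries were left out of the main fit because their replicates spread more (chi-square per degree of freedom 2.54 to 4.55, against 1.55 to 1.95). DESeq2 1.42.0 and limma 3.58.1 on log2(CPM + 1) were alternatives. Against NT2, DESeq2 left the status of 92 of the 152 named transcripts unchanged and lost the call of 30. The rest had no adjusted p in DESeq2. CPM values computed here are relative to the listed transcripts alone and cannot be compared between transcripts as molar amounts. Counts were simulated for cysteamine against NT2 over 1399 transcripts, from 1 mean profile for all 8 libraries and 1 common dispersion (0.008874). Of 50 transcripts in each set, 45 raised by 1 log2 unit, 43 lowered by 1, 50 raised by 2 and 47 lowered by 2 were called. Of 1199 unchanged transcripts 9 were called. The simulation held no shift of the class between groups and no spread that differed between transcripts. It checks the fit and does not give the error rates of the real calls.

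Named genes were the 12 highest and 12 lowest called fold changes outside the class and 5 of each within it, with libraries that do not overlap and at least 10 mean counts in a group, from each list the 4 members, or fewer, of smallest p, 5 of each direction against knockdown, the 3 transcripts with the most counts, and a set of cystine and ferroptosis genes; not all are described, and some are not reported here. Vim, P4hb, Hyou1, Canx, Pdia3, Pdia6, Ybx3, Rps25, Hnrnpa3 and Spats2l fall outside this rule and were named after their values were seen. The comparison and the lists were chosen with earlier results of these data known, so lists are described by counts and medians with no test.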

Additional observations from a re-analysis of the deposited data

How the results depend on the processing

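Under TMM with 8 libraries, 225 transcripts were called higher and 150 lower with cysteamine than in NT2. DESeq2 called 75 and 57, a fit of all 14 libraries 77 and 70, and a control of NT2 and NT together, in the 14-library fit, 151 and 98. Leaving out 1 library in turn left 111 to 135 called higher and 80 to 108 lower, the shortened group then resting on 1 library assumed to vary like the other groups. Against CTNS knockdown, 295 higher and 234 lower became 150 and 95 with DESeq2, 205 and 141 with 14 libraries, and 207 to 222 and 121 to 172 with 1 library left out. DESeq2 size factors, the filter at a mean count of 20, summing by symbol and limma left the counts within 1.5 times. Only the 4 libraries compared (193 higher, 197 lower) and leaving out the class (152 and 152) gave an even split of directions. The replicate numbers pair nothing by the labels: the deviations of cysteamine replicate 1 correlated with those of replicate 1 at 0.087 in NT2, 0.276 in CTNS knockdown and 0.23 in CTNS rescue, and a replicate block gave 298 higher and 198 lower against NT2, and 318 and 283 against knockdown. In the 14-library fit the calls of Hsp90ab1 (adjusted p 0.267), Vim (0.0779), Pabpc1 (0.0713), Eef2 (0.227), Rpl41 (0.208), Hspg2 (0.278), Timp3 (0.0503), Ezr (0.131), Myh10 (0.0931) and Axl (0.0761) were lost, and with DESeq2 those of Hspg2 (0.0641), Axl (0.127), Rpl27 (0.0806) and Rps6 (0.0705). With NT2 and NT as the control, 13 of 152 named transcripts changed sign and were called in the main fit or that one. Sign changes of transcripts called in neither were not counted. Snap91 moved to -0.35, ENSMUST00000239301 to -0.21, Ctrb1 to -0.32, Kifc2 to -0.086, Pcdha9 to -0.87, Slc6a15 to -1.33 and Aars to 0.29. Lamp1 moved to 0.74, P4ha1 to -0.32, mt-Co2 to 0.79, Luc7l2 to -1.48, Pigl to -0.76 and Pglyrp3 to -1.76. Slc6a15 (edgeR adjusted p 0.0160) and Pglyrp3 (0.0431) were then called lower, and Lamp1 (0.0354) and mt-Co2 (0.0298) higher. Ctrb1, Kifc2, Pcdha9, Slc6a15, P4ha1, Luc7l2, Pigl and Pglyrp3 belong to the class of 236 transcripts. That class was chosen with the NT libraries among those it is rich in, so lower values of its members against this control are partly built in. A further 50 lost their call under that control, beside those named above Aldh18a1 (-0.83, adjusted p 0.114), Hsph1 (0.45, 0.138), Ezr (-0.30, 0.452), Myh10 (-0.19, 0.593), Eef2 (0.58, 0.106) and Ccnd1 (0.88, 0.0682); the cause of these changes was not tested, and the NT libraries hold 25697 and 33990 counts. Median counts of 46 to 61 per transcript limit precision.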
